A study of Homo sapiens with 8 samples.

Results

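Wide H3K4me1 domains were taken as the listed H3K4me1 regions of unstimulated T47D-MTVL cells that span 10 kb or more from start to end. They numbered 2643 of 73263 regions. This line, derived from a human luminal breast cancer, carries a reporter under the progestin-responsive promoter of mouse mammary tumour virus. The progesterone receptor (PR) was mapped by chromatin immunoprecipitation and sequencing (ChIP-seq) in unstimulated cells (0 min) and in cells given 10 nM of the synthetic progestin R5020 for 5, 30, 60 or 360 min. H3K4me1, H3K4me3 and RNA polymerase II were mapped in unstimulated cells. All cells had first been kept for 48 h in charcoal-treated serum, which lacks most steroid hormone, and for 1 day without serum. A table of reads after micrococcal nuclease (MNase) digestion covered the PR sites of the 60 min list in unstimulated and R5020-treated cells. Each group was 1 library, so none of the differences below has a replicate check.

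H3K4me1 is deposited by the MLL3 and MLL4 methyltransferases at enhancers and also flanks active promoters, where H3K4me3 takes its place at the start site. Most enhancers carry narrow H3K4me1 regions, and long tracts of the mark are found where many regulatory elements lie close together or across the bodies of active genes. PR is a nuclear receptor that binds DNA as a dimer once hormone is bound, largely at enhancers and away from promoters. MNase cuts the linker between nucleosomes, so reads after digestion report nucleosome-sized DNA at a site.

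The width of the regions chose the members, so widths are given only as a description. The domains had a median width of 13858 bp (quartiles 11475 and 19045 bp), against 2058 bp for the 70620 narrower regions. They made up 3.61% of the regions and covered 45.7 Mb, 19.7% of the sequence listed as H3K4me1. There were 574 domains of 20 kb or more, 213 of 30 kb or more, 40 of 50 kb or more and 3 of 100 kb or more. The 10 kb limit fell in a continuous range of widths. The 5 regions just under it spanned 9991 to 9999 bp and the 5 just over it 10000 to 10011 bp. At 60 min 1 region of each of these 2 sets held a PR site. The domains were also not always isolated units, since 71.7% of them had another listed H3K4me1 region within 1 kb, with a median gap to the nearest of 269 bp. For narrower regions these values were 36.0% and 2552 bp. A long tract of the mark can therefore be listed as several regions.

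Wide domains were unevenly spread over the chromosomes. Chromosome 17 held 409 of them, or 5.04 per Mb, and 35.6% of its H3K4me1 sequence lay in them. Chromosome 3 had 285 domains, chromosome 1 had 229, chromosome 12 had 223 and chromosome 9 had 218. At the other end, chromosome 2, one of the longest, had 22, chromosome 13 had 7, chromosome X had 4 and chromosome 18 had 1. The share of H3K4me1 regions that were wide ranged from 0.179% on chromosome 18 to 8.50% on chromosome 17. Chromosomes 2, 13, 18 and X also had few H3K4me1 regions of any width (2159, 929, 558 and 594, against 4811 on chromosome 17). At their 60 min PR sites the authors' deposited table had medians of 20.6, 23.0, 20.25 and 16.4 unstimulated MNase reads per 100 bp. On chromosome 17 this median was 39.6 in the authors' deposited table. The part of DNA copy number in this spread was not tested.

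Few wide domains held a PR site before hormone, and after 5 min of R5020 more than 40% did. At 0 min 131 domains (4.96%, 95% exact binomial interval 4.16 to 5.85%) overlapped a PR site by at least 1 bp, against 0.495% of all H3K4me1 regions. At 5 min the number was 1137 (43.0%), against 12.1% of all H3K4me1 regions. The number then changed little. It was 1164 (44.0%) at 30 min, against 12.6%, then 1165 (44.1%, 42.2 to 46.0%) at 60 min, against 12.2%, and 1159 (43.9%) at 360 min, against 11.3%. A wider region has more room for a site, so these shares cannot be set against the background without a length scale. Intervals below of shares, densities and density ratios cover counting error only. Those of MNase medians reflect the spread among sites and not that between libraries. Both kinds treat neighbouring sites as independent and are therefore likely too narrow.

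Most occupied domains held 1 or 2 PR sites. At 60 min 593 domains held 1 PR site, 271 held 2 and 301 (11.4%, 10.2 to 12.7%) held 3 or more, while 231 of the narrower regions (0.327%) held 3 or more. In 92 domains there were 5 or more sites and in 14 there were 10 or more. In all, 2498 of the 24436 sites at 60 min (10.2%) lay in wide domains, and in each list with hormone the share was between 9.60% (30 min) and 10.6% (5 min). The sites themselves were of ordinary size: their median width at 60 min was 320 bp in wide domains, 316 bp in narrower regions and 309 bp outside H3K4me1 regions. Neighbouring 60 min sites of the same domain had a median spacing of 2499 bp over 1329 pairs, and 24.1% of the pairs lay within 1 kb.

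Per unit of length, PR sites after hormone were nearly as frequent in narrower regions as in wide domains. For densities each site was placed by its midpoint. Wide domains held 5.32 sites per 100 kb at 5 min (95% exact Poisson interval 5.12 to 5.54), 5.43 at 30 min, 5.45 at 60 min (5.24 to 5.67) and 5.10 at 360 min (4.89 to 5.31). Narrower regions held 4.80, 5.06, 4.82 and 4.38 sites per 100 kb at these times. The ratio of wide to narrower was thus 1.11 at 5 min, 1.07 at 30 min (1.03 to 1.12), 1.13 at 60 min (1.08 to 1.18) and 1.16 at 360 min (1.11 to 1.22). Against the 7301 regions of 5 to 10 kb, the next narrower class, the ratio at 60 min was 1.05 and its interval of 0.997 to 1.11 included 1. On the 20 chromosomes with 20 or more domains the ratio was above 1 on 16 at 5 min, 15 at 30 min, 18 at 60 min and 15 at 360 min, with a median of 1.17 at 60 min. The lowest value at 60 min, 0.446, came from chromosome 2, whose 22 domains held 9 sites.

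The few sites of unstimulated cells were distributed differently. At 0 min wide domains held 162 of the 844 PR sites (19.2%). The density was 0.355 per 100 kb (0.302 to 0.414) in wide domains and 0.127 (0.112 to 0.145) in narrower regions, a ratio of 2.78 (2.27 to 3.41). Chromosome 3 alone contributed 64 of the 162 sites, in 50 domains, and the widest domain contributed 11. Without chromosome 3 the ratio was 2.46 (1.90 to 3.18), and without chromosome 3 and the widest domain it was 2.21 (1.69 to 2.89). Of the 162 sites, 34 overlapped a site of the 60 min list. With the PR lists of all times merged, 40 sites in wide domains were listed at 0 min and a later time. Another 122 were listed at 0 min alone. Narrower regions had a like split, with 58 and 183, and outside H3K4me1 regions the numbers were 7 and 430. The low overlap was thus not particular to wide domains. Of the 131 domains with a site at 0 min, 82 (62.6%) had a site at 60 min.

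Domains with PR tended to be listed with it at every time after hormone. A PR site was present at all 4 times with hormone in 849 wide domains (32.1%, 30.3 to 33.9%), against 7.13% of all H3K4me1 regions. These were 57.3% (54.8 to 59.9%) of the 1481 domains with a site at any of the 4 times. The corresponding share was 44.0% (42.0 to 45.9%) for regions of 5 to 10 kb and 37.5% (36.7 to 38.4%) for all narrower regions. A region with several sites meets this count more easily, so single sites were also followed. After the 5 lists were merged, 36.6% (35.1 to 38.2%) of the 3755 merged sites in wide domains were listed at all 4 times with hormone. In narrower regions this share was 32.2% (31.4 to 32.9%) of 14683, and outside H3K4me1 regions 15.7% (15.2 to 16.1%) of 25346. The difference between wide and narrower was thus smaller for sites than for regions. Between the lists of 5 and 60 min, 441 domains had more sites at the later time and 398 had fewer. Between 60 and 360 min, 294 had more at the later time and 391 had fewer. Narrower regions changed in the same directions, with 2944 more and 2897 fewer, then 1571 more and 2388 fewer. The lists of 5, 60 and 360 min held 22973, 24436 and 23841 sites.

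PR density differed with the place within the domain. At 60 min it was 2.54 per 100 kb (2.12 to 3.002) in the outer 1 kb, 4.28 at 1 to 2 kb from the edge, 5.51 at 2 to 3 kb, 5.68 at 3 to 5 kb and 6.44 (6.08 to 6.81) more than 5 kb inside. Just outside the domains the density dropped to 0.640 (0.448 to 0.886) within 2 kb and 0.777 (0.569 to 1.04) at 2 to 5 kb, leaving out sequence in other H3K4me1 regions. The whole domain was 7.02 times (5.25 to 9.61) as dense in PR as the flank at 2 to 5 kb. At equal distance from the edge, regions of 5 to 10 kb were not less dense than the domains: they held 2.92 per 100 kb in the outer 1 kb, 5.48 at 1 to 2 kb and 6.58 (6.15 to 7.04) at 2 to 3 kb. The higher density of wide domains over all narrower regions therefore did not appear where parts at the same depth were compared with this class.

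**Figure D1:**
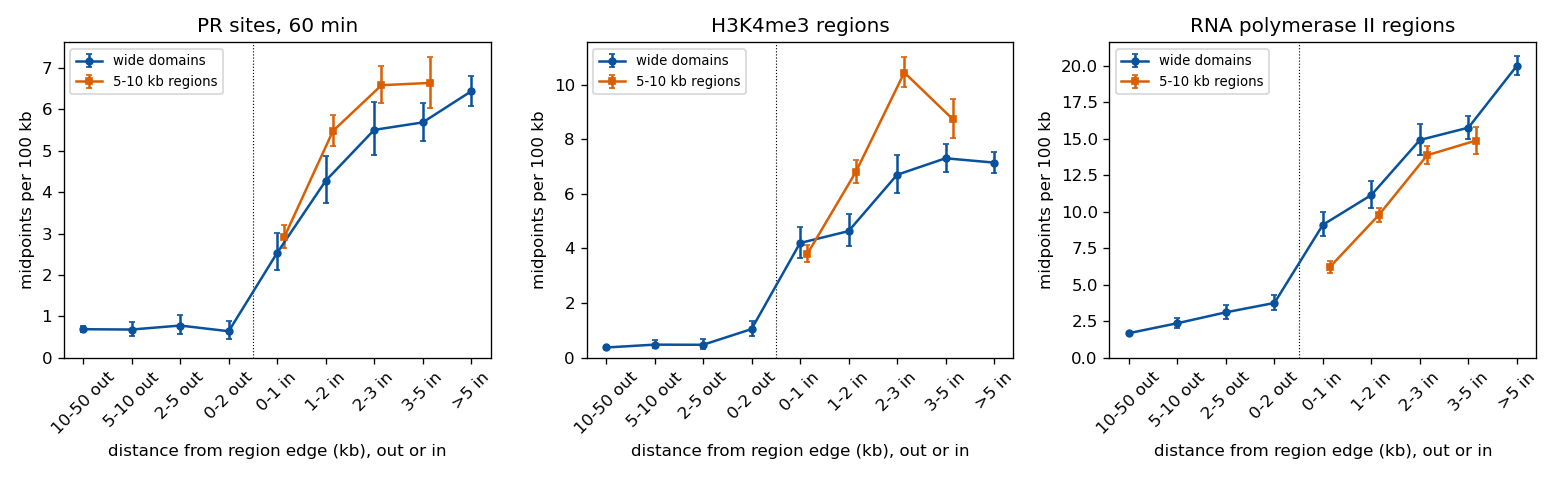
Midpoints per 100 kb of 60 min PR sites, H3K4me3 regions and RNA polymerase II regions (vertical axes) by distance from the region's edge in kb (horizontal axis; out is outside H3K4me1 regions, in is inside), for wide domains (blue) and regions of 5 to 10 kb (orange). Bars are 95% Poisson intervals; PR density in wide domains climbed from 2.54 in the outer 1 kb to 6.44 beyond 5 kb, and polymerase density from 9.10 to 19.99.

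H3K4me3, the mark of active promoters, was present in 1353 of the 2643 domains but no denser in them than elsewhere in H3K4me1 sequence. These are 51.2% of the domains (49.3 to 53.1%), against 16% of all H3K4me1 regions, and 807 domains held 2 or more H3K4me3 regions. Its density was 6.50 regions per 100 kb in wide domains and 6.86 in narrower regions, a ratio of 0.947 (0.910 to 0.986). The ratio was above 1 on 7 of the 20 chromosomes with 20 or more domains.

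RNA polymerase II regions were denser in wide domains than in narrower regions. They were found in 1670 domains (63.2%, 61.3 to 65.0%), against 16.8% of all H3K4me1 regions, and 195 domains held 10 or more. The density was 16.1 regions per 100 kb (15.8 to 16.5) in wide domains, 7.67 in narrower regions and 10.5 in regions of 5 to 10 kb. The ratio of wide to narrower was 2.10 (2.05 to 2.16), and it was 1.53 (1.48 to 1.59) against regions of 5 to 10 kb. It was above 1 on 18 of 20 chromosomes. With increasing width the polymerase density went from 2.72 per 100 kb in regions under 1 kb to 12.98 at 10 to 15 kb and 21.8 at 30 kb or more. PR density at 60 min went from 3.33 in regions under 1 kb to 5.18 at 5 to 10 kb, and H3K4me3 density from 2.27 to 7.15. In the classes of width from 10 kb on, PR density at 60 min stayed between 5.09 and 6.29 and H3K4me3 density between 6.33 and 7.01. Polymerase regions near each other may be pieces of 1 occupied stretch, as for the H3K4me1 list. The sequence they covered was also larger, at 12.3% of wide domains and 4.76% of narrower regions.

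**Figure D2:**
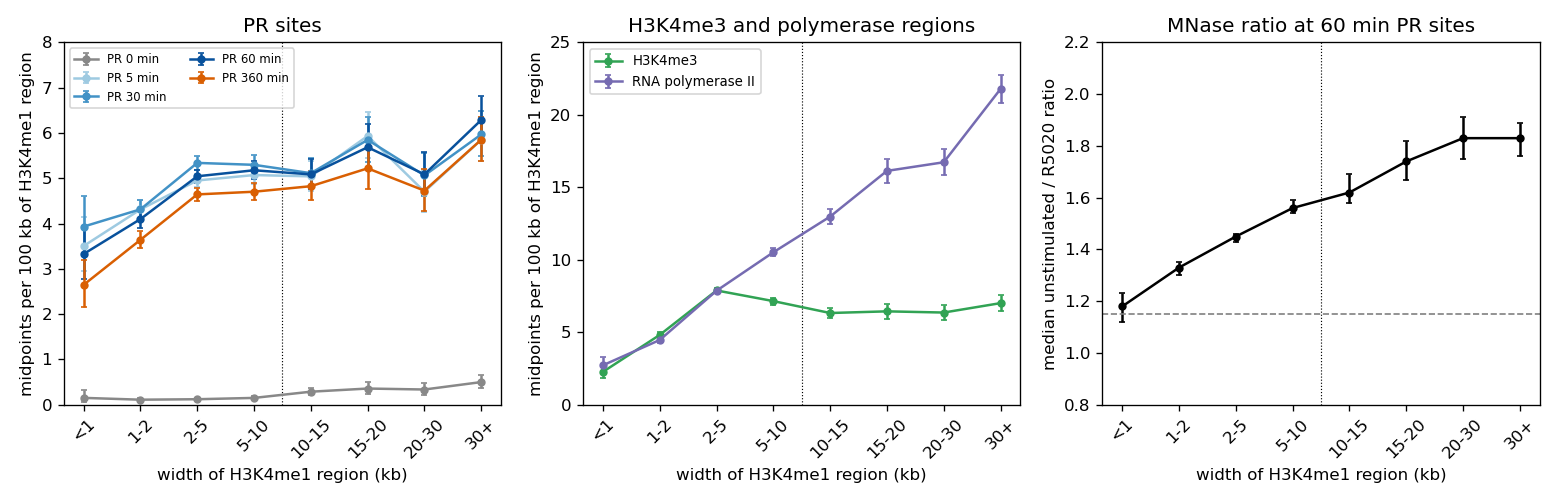
Midpoints per 100 kb of PR sites at 5 times (left) and of H3K4me3 and RNA polymerase II regions (middle), and the median MNase ratio from the authors' deposited table at 60 min PR sites (right), by width of the H3K4me1 region in kb. Bars are 95% intervals, the dotted line marks 10 kb and the dashed line in the right panel is the ratio of 1.15 outside H3K4me1 regions; polymerase density reached 21.8 at 30 kb or more while PR density at 60 min reached 6.29.

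Both marks together were the most common state of wide domains. Both H3K4me3 and polymerase were present in 1209 domains (45.7%), polymerase alone in 461 (17.4%), H3K4me3 alone in 144 (5.45%) and neither in 829 (31.4%). In narrower regions these shares were 10.3%, 4.80%, 4.34% and 80.5%. For regions of 5 to 10 kb they were 25.8%, 12.9%, 5.52% and 55.8%. PR density at 60 min differed between these states. It was 7.73 sites per 100 kb (7.10 to 8.40) in domains with polymerase alone, 5.85 (5.55 to 6.17) with both, 4.08 (3.31 to 4.96) with H3K4me3 alone and 3.56 (3.23 to 3.92) with neither. At the times with hormone the comparison with narrower regions took opposite directions by state. Among regions with neither, wide domains were less dense in PR at 60 min than narrower ones, with a ratio of 0.747 (0.675 to 0.823). With polymerase alone the ratio was 1.04 (0.932 to 1.15), and with both it was 1.36 (1.26 to 1.47). The ratios at 5, 30 and 360 min for neither (0.693, 0.751 and 0.828) and for both (1.55, 1.41 and 1.46) lay on the same sides of 1. Before hormone the ratio was above 1 in both states, at 2.41 (1.53 to 3.68) for neither and 1.93 (1.40 to 2.66) for both. The states themselves were defined by region, and a wider region has more room for a mark. The density was therefore also taken by the sequence that the polymerase regions cover.

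After hormone, the higher PR density of wide domains over all narrower regions was found within polymerase regions and not in the rest of their sequence. Polymerase regions also covered more of the wide domains, 12.3% of their sequence against 4.76% in narrower regions. Inside the 5.62 Mb of wide domains that polymerase regions cover, 60 min sites had a density of 12.5 per 100 kb (11.6 to 13.5), against 9.63 (8.99 to 10.3) in the polymerase-covered sequence of narrower regions. In that of regions of 5 to 10 kb alone it was 11.4 (10.3 to 12.6), and this interval overlaps that of wide domains. In the remaining sequence the densities were 4.46 (4.26 to 4.68) in wide domains and 4.58 (4.48 to 4.68) in narrower regions, which did not differ beyond counting error. At 360 min they were 4.27 and 4.19, and at 5 and 30 min wide domains had the lower density, with 4.29 (4.09 to 4.498) against 4.59 (4.49 to 4.69) and 4.56 against 4.87. At 0 min the remaining sequence still differed, with 0.292 (0.241 to 0.350) in wide domains and 0.103 (0.0883 to 0.119) in narrower regions. Counted by overlap, 820 of the 2498 sites at 60 min in wide domains (32.8%, 30.99 to 34.7%) touched a polymerase region, and 12.0% of those in narrower regions did. For H3K4me3 the shares were 11.5% and 7.94%. Inside H3K4me3 regions the 60 min density was also higher in wide domains, at 8.91 (7.75 to 10.2) against 5.83 (5.35 to 6.33) in narrower regions. In regions of 5 to 10 kb it was 6.64 (5.72 to 7.66). Outside H3K4me3 regions it was 5.26 (5.05 to 5.49) in wide domains and 4.77 (4.67 to 4.87) in narrower regions.

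Domains without a PR site in any list numbered 1131 (42.8%), against 58819 (83.3%) of the narrower regions, which have less room for a site. The 1131 domains were narrower than the rest, with a median of 12914 bp against 14927 bp for the 1512 with PR at 1 or more times. Polymerase was present in 52.8% (49.8 to 55.7%) of them and in 71.0% (68.6 to 73.2%) of those with PR, at 12.2 and 18.5 regions per 100 kb. H3K4me3 was present in 45.2% (42.2 to 48.1%) and 55.7% (53.1 to 58.2%). The 5 widest domains without PR were chr4:49272128-49338977 (66849 bp), chr4:49092831-49158798 (65967 bp), chr21:10771505-10829550 (58045 bp), chr5:1090453-1142526 (52073 bp) and chr16:46385652-46437073 (51421 bp). Only the chromosome 5 domain among these 5 held polymerase regions, 3 of them. It and the first domain on chromosome 4 held 2 H3K4me3 regions each, and the other 3 held none. The lists were not filtered here for repeated sequence, where reads can pile up. Whether these 5 stretches are such sequence was not tested.

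Single domains show how these counts combine. Coordinates are those of the deposited lists on hg19. Which genes lie in the domains was not determined here. The widest domain, chr16:85365139-85797385, spanned 432246 bp and was 3.89 times as wide as the next. It held 11 PR sites at 0 min, 51 at 5 min, 55 at 30 min, 52 at 60 min and 49 at 360 min, together with 61 H3K4me3 and 169 polymerase regions, which covered 8.78% and 45.2% of it. It led the domains in width, in PR sites at 0 and at 60 min and in both kinds of chromatin region. Its 0.120 PR sites per kb at 60 min were 2.21 times the 0.0545 of all wide domains together. It held 0.946% of the sequence of wide domains and 2.08% of their PR sites at 60 min. Right beside it, chr16:85307829-85365071 (57242 bp) held 0, 6, 10, 10 and 10 PR sites at the 5 times, with 4 polymerase regions and no H3K4me3 region.

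The next domains by PR sites at 60 min were smaller by far. On chromosome 17, chr17:55930657-56039007 (108350 bp) held 2 sites at 0 min, then 15, 17, 20 and 17 at the 4 times with hormone, in order of time. Also on chromosome 17, chr17:39630719-39699928 (69209 bp) held no site at 0 min, then 14, 12, 14 and 10. On chromosome 10 a pair of domains less than 1 Mb apart were alike: chr10:79622604-79663454 (40850 bp) held 8, 12, 14 and 13 sites with hormone and chr10:79158061-79198570 (40509 bp) held 9, 12, 13 and 11. Neither had a site at 0 min, and each held 1 H3K4me3 region. On chromosome 3, chr3:193862655-193927591 held 2 sites at 0 min, then 11, 12, 12 and 8. The list of 10 closed with chr5:149860387-149910327 (8, 11, 10 and 9 sites) and chr8:128854415-128898162 (10, 9, 10 and 6). Of the 10 domains 3 had a PR site before hormone.

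**Figure D3:**
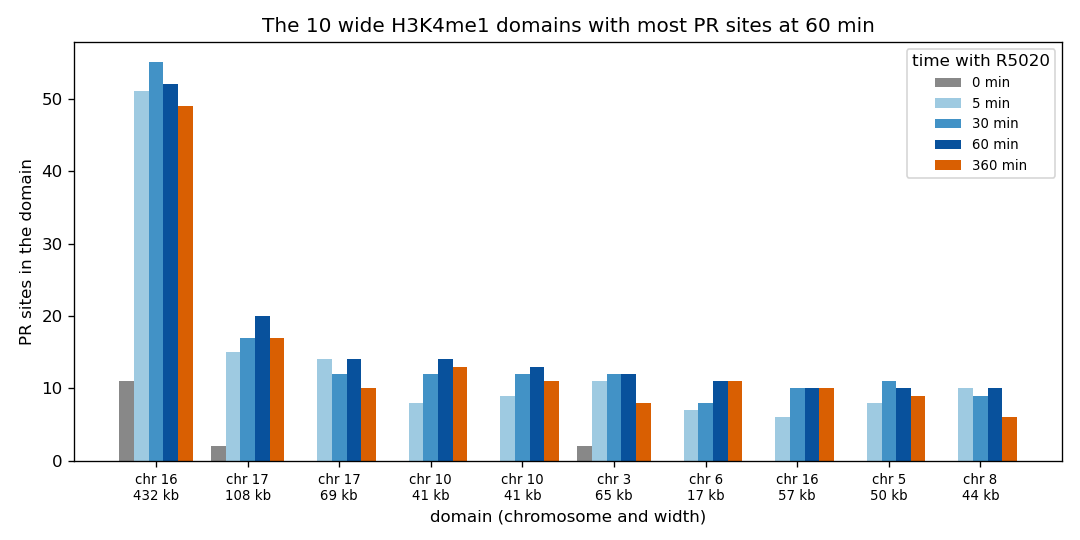
Number of PR sites (vertical axis) in each of the 10 wide domains with most sites at 60 min (horizontal axis, named by chromosome and width), with 1 bar per time with R5020. Each domain held at least 6 sites at each time with hormone; the widest held 49 to 55, and 3 of the 10 had any site at 0 min.

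The densest domain was one of the narrower ones. On chromosome 6, chr6:35689849-35706367 (16518 bp) held no site at 0 min, then 7, 8, 11 and 11, which gives 0.666 sites per kb at 60 min. It held 4 H3K4me3 and 3 polymerase regions. It was followed by chr3:187974336-187986942 (0.555 per kb), which held neither H3K4me3 nor polymerase regions and had 7 sites at 5, 30 and 60 min and 10 at 360 min. The other leaders, chr7:47982812-47994905, chr1:224634392-224647027 and chr1:200262993-200273731, had 0.466 to 0.496 sites per kb. Among domains with 5 or more sites at 60 min, the 5 densest were all 16518 bp wide or less, and a narrow domain reaches a high density with few sites.

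The domains with most H3K4me3 or polymerase regions varied widely in PR. The chromosome 16 domain led both orders and also held most PR sites, and chr10:80977823-81056732, with 32 polymerase regions, held 9, 6, 7 and 9 PR sites at the 4 times with hormone. Others held few. On chromosome 3, chr3:184006429-184117466 (111037 bp), the next widest after the chromosome 16 domain, held 15 H3K4me3 and 50 polymerase regions but 2, 4, 2, 1 and 3 PR sites at the 5 times. On the same chromosome chr3:183941595-183984078 held 9 H3K4me3 regions and had a PR site at 0 min only. Polymerase covered 47.7% of chr12:54358046-54402708, with 11 H3K4me3 regions and 3 PR sites at 60 min, and 44.1% of chr17:27031853-27062978, with 11 H3K4me3 regions and 1 PR site. With 36 polymerase regions, chr17:39878114-39943081 held 2 PR sites at 60 min, and chr3:183877222-183926570, with 32, held 1.

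At PR sites in wide domains the MNase values differed more between unstimulated and R5020-treated cells than at sites in narrower regions. At the 2498 sites in wide domains the ratio of unstimulated to R5020 reads in the authors' deposited table had a median of 1.74 (95% order-statistic interval 1.70 to 1.77). It was 1.56 (1.54 to 1.59) in regions of 5 to 10 kb, 1.44 (1.43 to 1.46) in all narrower regions and 1.15 (1.14 to 1.16) outside H3K4me1 regions in the authors' deposited table. A ratio above 2 was found at 34.0% of the sites in wide domains in the authors' deposited table, against 13% of all 60 min sites and 18.99% in narrower regions. A ratio above 1 was found at 95.4% of the sites in wide domains in the authors' deposited table, against 78% of all 60 min sites. The median on the log2 scale was 0.27 higher in wide domains than in narrower regions in the authors' deposited table, and 0.16 higher than in regions of 5 to 10 kb. Over the width classes the median ratio in the authors' deposited table went from 1.18 under 1 kb to 1.83 at 30 kb or more.

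With all chromosomes and all narrower regions pooled, the 2 classes differed in the unstimulated values and not in those after R5020. Per 100 bp of site, sites in wide domains had a median of 42.2 normalized reads (41.5 to 43.0) in unstimulated cells and sites in narrower regions 34.5 (34.1 to 34.9), by the authors' deposited table. After R5020 the medians in the authors' deposited table were 24.6 (24.1 to 25.1) and 24.4 (24.1 to 24.7), which did not differ beyond their intervals. Without chromosome 3 they were 23.4 (22.8 to 23.9) and 23.7 (23.4 to 24.0) in the authors' deposited table. Within chromosomes the R5020 value was in most cases lower in wide domains, on 15 of the 19 with 20 or more sites in wide domains in the authors' deposited table, for example 22.0 against 27.2 on chromosome 9. On chromosome 3 it was higher, at 48.2 against 34.05 in the authors' deposited table. Sites outside H3K4me1 regions had 25.2 and 21.9 in the authors' deposited table. In the authors' deposited table, narrower-region sites within 50 kb of a wide domain had 38.6 (37.9 to 39.5) and 26.6 (25.99 to 27.2). Those more than 200 kb away had 31.9 and 22.6 in the authors' deposited table. After R5020, sites in wide domains were thus lower than the narrower-region sites within 50 kb, beyond the intervals.

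The neighbourhood of wide domains had high values in both conditions. In the authors' deposited table the 132 sites outside H3K4me1 regions but within 10 kb of a wide domain had a median of 38.0 unstimulated reads per 100 bp and 31.8 after R5020. For sites outside H3K4me1 regions and more than 200 kb from any wide domain these medians in the authors' deposited table were 24.3 and 20.9. Compared with the neighbouring sites, sites in wide domains were thus higher in unstimulated cells (42.2 against 38.0) and lower after R5020 (24.6 against 31.8) in the authors' deposited table. The ratio of the neighbouring sites, 1.25 (1.17 to 1.33) in the authors' deposited table, was nearer to that of these distant sites, 1.14 (1.14 to 1.15). The normalization of the reads and the number of DNA copies in these stretches are not known here, and their part in the unstimulated values was not tested.

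**Figure D4:**
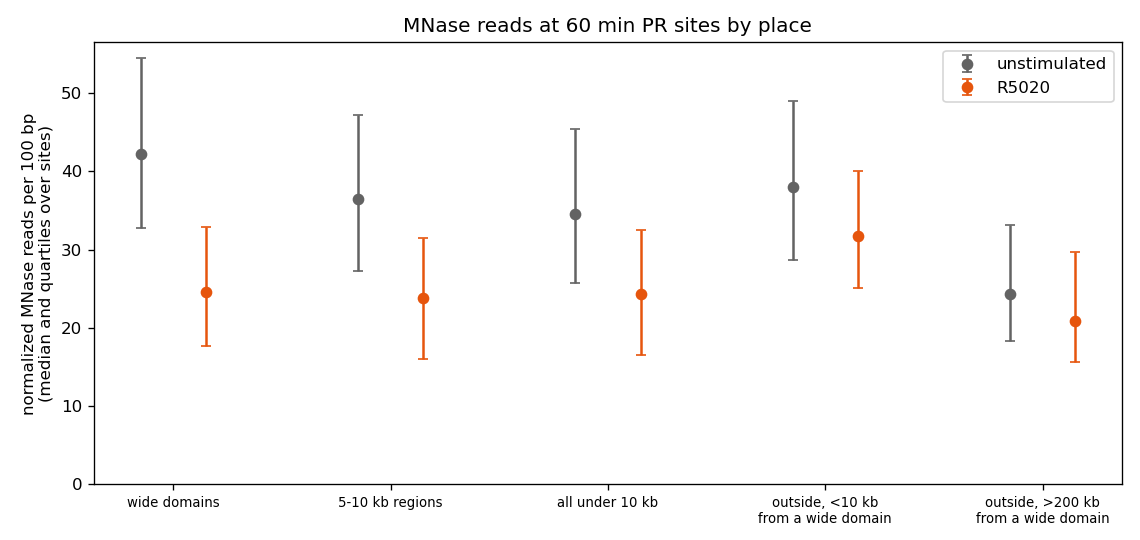
Normalized MNase reads per 100 bp of 60 min PR site from the authors' deposited table (vertical axis) in unstimulated cells (grey) and after R5020 (orange), by place of the site (horizontal axis). Points are medians over sites and bars run from the lower to the upper quartile; unstimulated medians are 42.2 in wide domains and 34.5 in all narrower regions, and R5020 medians 24.6 and 24.4.

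Split by the other marks at the site, the median ratio was higher in wide domains in all 4 classes, and beyond the intervals at sites with neither mark and at sites with polymerase alone. At sites in neither H3K4me3 nor polymerase regions the authors' deposited table had a median ratio of 1.56 (1.54 to 1.59) in wide domains and 1.39 (1.38 to 1.41) in narrower regions. In polymerase regions alone it was 2.06 (1.98 to 2.12) and 1.88 (1.81 to 1.96) in the authors' deposited table. In both it was 2.35 (2.16 to 2.44) and 2.17 (2.06 to 2.31) in the authors' deposited table, where the intervals overlap. At the 62 sites in H3K4me3 regions alone the ratio of 1.65 (1.48 to 1.82) in the authors' deposited table could not be told from the 1.60 in narrower regions. On the log2 scale the differences for neither, polymerase alone and both were 0.17, 0.13 and 0.11 in the authors' deposited table, smaller than the 0.27 of all sites.

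Sites with like unstimulated values were compared as well. All 60 min sites were split into 5 groups of equal size by their density of unstimulated reads in the authors' deposited table. This value is the numerator of the ratio, so the groups are not independent of it. The median ratio was higher in wide domains than in narrower regions in each group of the authors' deposited table, by 0.22, 0.05, 0.20, 0.25 and 0.29 from the lowest to the highest. In the group next to the lowest the intervals overlapped, at 1.49 (1.41 to 1.65) and 1.44 (1.40 to 1.48) in the authors' deposited table.

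**Figure D5:**
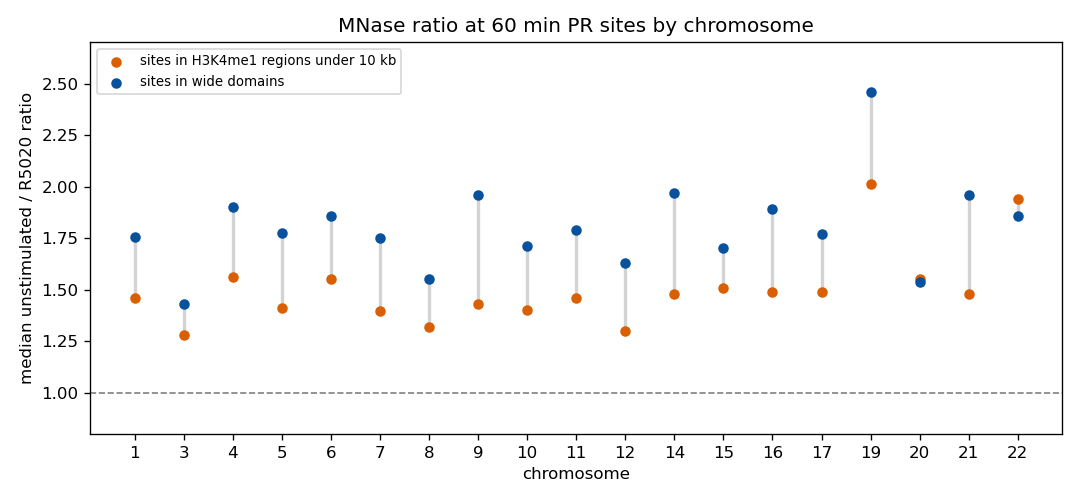
Median MNase ratio of unstimulated to R5020 reads in the authors' deposited table (vertical axis) at 60 min PR sites in wide domains (blue) and in H3K4me1 regions under 10 kb (orange), for the 19 chromosomes with 20 or more such sites in wide domains (horizontal axis). The blue point is above the orange one on 17 of the 19, with chromosomes 20 and 22 as the exceptions, and the dashed line is a ratio of 1.

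The direction held on most chromosomes and was graded within domains. On 17 of the 19 chromosomes with 20 or more sites in wide domains the median ratio in the authors' deposited table was higher in wide domains, by a median of 0.33 over the 19. The exceptions in the authors' deposited table were chromosome 20 (1.54 and 1.55) and chromosome 22 (1.86 and 1.94). The unstimulated value was higher in wide domains on 17 of the 19 in the authors' deposited table. From the edge inwards the median ratio in the authors' deposited table was 1.43 (1.33 to 1.49) in the outer 1 kb, 1.60 at 1 to 2 kb, 1.65 at 2 to 3 kb, 1.73 at 3 to 5 kb and 1.85 (1.80 to 1.90) beyond 5 kb. Sites of wide domains that were listed at all 4 times with hormone had 1.79 (1.75 to 1.84) and the other sites 1.66 (1.61 to 1.71) in the authors' deposited table. Narrower regions had a like difference, with 1.49 (1.47 to 1.51) and 1.39 (1.38 to 1.41) in the authors' deposited table.

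Among the 92 domains with 5 or more sites at 60 min, which together held 682 sites, each domain's median ratio was above 1 and 22 were above 2 in the authors' deposited table. The domain medians ranged from 1.20 to 3.41 in the authors' deposited table. The largest was that of chr11:67901900-67921927, where 5 sites had ratios of 1.53 to 3.82 in the authors' deposited table, with medians of 30.0 unstimulated reads and 8.81 R5020 reads per 100 bp. Next came chr16:88790676-88852902 (8 sites, median ratio 2.92 in the authors' deposited table) and chr21:43096579-43110674 (5 sites, 2.87). The smallest medians in the authors' deposited table were the 1.20 of chr8:124549669-124562451 and of chr9:117364278-117389844, which held 5 and 10 sites. In the widest domain the 52 sites had a median ratio of 2.27 in the authors' deposited table, with a range of 1.05 to 4.92. By the authors' deposited table its unstimulated median, 86.0 reads per 100 bp, was 2.04 times that of all sites in wide domains.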

How the data were processed

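Each ChIP-seq library was deposited by the authors as a list of hg19 coordinates (build per the submitters' processing notes), without scores or read numbers. The depth is unknown, with aligner, peak caller and thresholds not given in the sources used here. For MNase, the authors deposited normalized reads per 60 min PR site in each condition, handled as a score, and a ratio of both, per the file headers. How the reads were normalized is not given. The ratio is blank at 3 of 24436 sites.

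Densities count midpoints per length of region. Shares and MNase classes use overlaps of at least 1 bp, and a site touching a wide domain and a narrower region was assigned to the wide domain. Intervals are 95% exact binomial, Poisson, conditional rate-ratio or order-statistic intervals. With 1 library per group no test was made. The counting code was tested on simulated data. Domains named in the text are those leading by width, by PR sites at 0 or 60 min, by PR sites per kb, by MNase ratio (5 or more sites), by H3K4me3 or polymerase regions, or by width without PR. Members, lists and rules were chosen with earlier results of these data known. No genome or annotation of hg19 was used, so genes and sequences are not given. The software was pandas 2.3.3, SciPy 1.17.1, NumPy 2.4.6, Matplotlib 3.10.9 and Python 3.11.15.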

Additional observations from a re-analysis of the deposited data

How the results depend on the processing

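Of 51 recomputed values, 31 stayed within the 95% interval of the reported value and 20 did not. Only the density ratio and the log2 difference have a direction, and it did not change in any setting. With a limit of 15 kb, the 1109 domains had 5.70 PR sites per 100 kb at 60 min, 54.5% held a PR site, 62.7% H3K4me3 and 74.1% polymerase, and the median MNase ratio was 1.80. With regions up to 1 kb apart joined first, there were 4135 domains with 5.03 PR sites per 100 kb, a density ratio of 1.05 (1.01 to 1.09), shares of 46.9% with PR, 53.2% with H3K4me3 and 60.9% with polymerase, a median MNase ratio of 1.61 and a log2 difference of 0.17. With the wider 50% of each counted list the density was 2.91 and the shares were 30.1%, 38.9% and 51.2%. Without chromosome 17 the density was 5.70. Against regions of 5 to 10 kb only, the density ratio was 1.05 (0.997 to 1.11) and the log2 difference 0.16. Added after the data were seen: without chromosome 3 the median MNase ratio was 1.78, and without the widest domain each of the 7 values stayed within its interval.

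No paired analysis was possible because each group holds 1 library. The depth of the libraries is unknown, so absence from a list is no evidence of absence, and lists of different times cannot be set against depth.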

Other observations

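Wide domains clustered along the chromosomes. Between neighbouring domains on the same chromosome the median gap was 41278 bp (quartiles 8134 and 221578 bp) over 2620 pairs. In 732 pairs the gap was at most 10 kb, and in 1682 pairs at most 100 kb.

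Chromosome 3 stood apart in its MNase values. In the authors' deposited table its 277 sites of the 60 min list in wide domains had medians of 70.1 unstimulated and 48.2 R5020 reads per 100 bp, the highest of the 19 chromosomes compared in both conditions. Its 912 sites in narrower regions had 43.8 and 34.05 in the authors' deposited table. The median ratios of 1.43 and 1.28 on chromosome 3 were the lowest of the 19 in each class of the authors' deposited table. At 0 min chromosome 3 held 64 of the 162 PR sites in wide domains. Among the domains named for MNase ratio, chr3:193862655-193927591 had medians of 86.8 unstimulated and 68.4 R5020 reads by that length in the authors' deposited table, and chr3:195387318-195463319, among the 10 widest domains, had 1 site with 225.1 and 273.1. The part of DNA copy number in these values was not tested.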
